A study of Homo sapiens with 28 samples.

Results

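The cytosolic ribosomal protein genes encode the proteins of the small (RPS) and large (RPL) subunits of the ribosome that translates nuclear mRNA. They were taken as the protein-coding rows whose names follow the RPS and RPL pattern, together with RPLP0, RPLP1, RPLP2 and RPSA, with a mean TPM (an abundance per transcript length, scaled to the same total in every library) of at least 1 over the 28 libraries. Of 58219 genes in the table, 84 rows matched by name and type and 82 were members: 31 of the small subunit, 46 of the large subunit and 5 paralogues whose names add an L to that of another member (RPL22L1, RPL26L1, RPL39L, RPL7L1 and RPS27L). The lowest member was RPL7L1, with a mean of 39.9 TPM. The rows outside the limit were RPL3L, a paralogue known from striated muscle, with a mean of 0.374 TPM, and RPL10L, known from testis, listed at 0. All 82 members passed the filter on low values.

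The libraries came from H9, an established human embryonic stem cell line, either SOX1-/- (KO) or wild type (WT), in a study of what SOX1, a transcription factor of early neural tissue, does in neural differentiation. Both genotypes were collected undifferentiated (ES, day 0) and on days 4 and 8 of differentiation under the labels IWP2, CT0.4 and CT1.0. The first of these is the name of a compound that blocks the secretion of WNT proteins. The labels do not say what CT stands for or in which unit 0.4 and 1.0 are. The 14 groups held 2 libraries each, numbered 26 and 48 in KO and 1 and 2 in WT. These numbers were read as lines, although the labels do not say that they are, and the word line is used below in this sense. On that reading each genotype rests on a pair of lines, and p-values measure the spread between these libraries. How any lines were made is not given either.

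SOX1 was listed at 0.41 to 3.08 TPM in the 12 KO libraries of days 4 and 8. In WT it was highest under CT1.0, where it was between 84.05 and 98.0 TPM on day 4 and between 72.1 and 79.4 TPM on day 8. The labels do not say which part of SOX1 was removed in KO. Under IWP2 on day 4 the genotypes overlapped, with 0.41 and 1.14 TPM in KO and 0.907 and 0.99 TPM in WT. The summed TPM of 9 pluripotency markers was 4516 to 4881 in the ES libraries. The 4 WT libraries of CT0.4 and CT1.0 on day 4 stood apart, with 17694 to 18233 genes at a TPM of at least 1, against 18876 to 20338 in the other 24. Read depth cannot be recovered from TPM, and counting error is therefore unknown. Values from bulk RNA cannot tell more cells of a type from more RNA per cell.

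Ribosomal proteins are made in near-equal numbers, because each ribosome carries a single copy of most of them, and their genes are usually transcribed together. Their mRNAs typically begin with a C followed by an unbroken run of pyrimidines, the 5′ terminal oligopyrimidine (TOP) motif. Through this motif LARP1 and mTOR control how strongly the mRNAs are translated and how long they are kept. Growing and dividing cells are known to spend much of their transcription on this set.

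The TOP motif was looked for in the RefSeq promoter table (GRCh38.p14), which holds 66 of the 82 members, since it is the feature of the transcript start that these genes share and that their selection did not use. On the gene's strand, a C at the annotated start followed by at least 4 more C or T was found in 47 of the 66 members, or 71.2%, against 1404 of 27305 genes in the table, or 5.14%. Allowing a shift of 5 bases in either direction gave 54 members, or 81.8%, against 25.2% of the genes. The sequences below run 5′ to 3′ from 10 bases before the annotated start to 20 bases from it, with the run of pyrimidines from the start in capitals. RPL31, RPL39 and RPL24 are shown because their difference between KO and WT passed a test between culture labels, the RPL22, RPS27 and RPL26 pairs because each sets a common member beside its paralogue, and RPS26 because it left the course of the other members.
RPL31 (chr2:101002279-101002308, plus strand): ccttcgcgctCTTCCTTTCCaacttggacg
RPL39 (chrX:119791611-119791640, minus strand): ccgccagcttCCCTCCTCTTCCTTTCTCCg
RPL24 (chr3:101686699-101686728, minus strand): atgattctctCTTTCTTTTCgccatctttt
RPL22 (chr1:6199576-6199605, minus strand): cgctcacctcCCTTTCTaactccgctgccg
RPL22L1 (chr3:170870176-170870205, minus strand): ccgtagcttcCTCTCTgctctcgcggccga
RPS27 (chr1:153990752-153990781, plus strand): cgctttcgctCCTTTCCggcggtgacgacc
RPS27L (chr15:63157458-63157487, minus strand): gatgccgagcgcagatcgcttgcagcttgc
RPL26 (chr17:8383174-8383203, minus strand): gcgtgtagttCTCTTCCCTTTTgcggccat
RPL26L1 (chr5:172958719-172958748, plus strand): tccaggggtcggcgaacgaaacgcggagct
RPS26 (chr12:56041908-56041937, plus strand): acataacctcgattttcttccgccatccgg
RPL39 had the longest run of these, 19 bases, and RPL26 had 12. Of the paralogues shown, RPL22L1 had a run of 6 bases at its start, and the windows of RPS27L and RPL26L1 hold none there, as does that of RPS26.

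Together the 82 members held between 16.3% and 31.7% of all TPM in a library. The highest mean levels were those of RPL41, the smallest ribosomal protein, with 8370 TPM, RPS27 with 8201 TPM, RPS23, a protein of the decoding centre, with 6225 TPM, RPL4, which lines the exit tunnel, with 5948 TPM, and RPS24 with 5882 TPM. The 5 lowest were the paralogues, with mean levels of 39.9 (RPL7L1), 45.3 (RPS27L), 46.6 (RPL22L1), 56.2 (RPL39L) and 67.5 TPM (RPL26L1). The next lowest was RPS26, at the mRNA exit channel, with 361 TPM. Many members have processed pseudogenes of near-identical sequence. The 1131 rows of such pseudogenes held 0.296% to 0.505% of TPM in a library, and how reads were divided between genes and pseudogenes could not be checked here.

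The share differed between days and labels in both genotypes. It was 17.7% and 17.4% in KO ES libraries, against 20.3% and 18.2% in WT ES libraries. On day 4 it was 22.0% and 20.4% under IWP2 in KO, against 20.1% and 20.8% in WT. Under CT0.4 on day 4 it was 25.8% and 24.1% in KO, against 28% and 26.2% in WT. Under CT1.0 on day 4 it was 27.5% and 28.1% in KO, against 29.8% and 29.3% in WT, and here, under CT0.4 on day 4 and in ES cells both KO libraries lay below both WT libraries.

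On day 8 the share under IWP2 was 18.4% and 17.5% in KO, against 17.1% and 17.8% in WT. Under CT0.4 on day 8 it was 18.1% and 16.3% in KO, against 17.4% and 17.9% in WT. Under CT1.0 on day 8 it was 31.7% and 29% in KO, against 22.6% and 24.1% in WT. Both KO libraries lay above both WT libraries there, and the log2 ratio of the group means was 0.38, against -0.14 to 0.05 in the other 6 comparisons of KO with WT. With 2 libraries against 2 an exact permutation test cannot give a two-sided p below 0.333, so the sums were not tested. The share of TPM from the mitochondrial genome, which enters the same total, was 6.02% and 5.94% in these KO libraries, against 7.29% and 7.20% in the WT libraries.

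**Figure D1:**
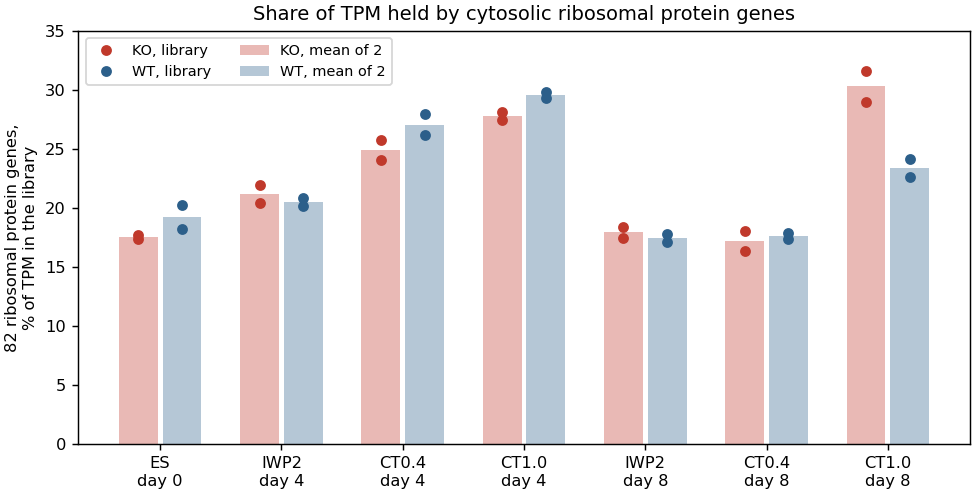
Summed TPM of the 82 cytosolic ribosomal protein genes as a percentage of the library's TPM (vertical axis), for KO (red, left of each pair) and WT (blue), by label and day. Points are libraries and bars are means of 2 libraries; CT1.0 on day 8 has the widest gap, with KO libraries at 31.7% and 29% and WT libraries at 22.6% and 24.1%.

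Single genes were compared with limma on log2(TPM + 1), a scale on which fold changes of low genes are understated, and a gene was called at a Benjamini-Hochberg adjusted p under 0.05 over the 27912 genes tested. In ES cells no member was called between KO and WT, where limma called 0.219% of all genes tested. No member was called under IWP2 on day 4 (0.043% of all genes) or day 8 (0.0609%), or under CT0.4 on day 4 (4.24%) or day 8 (0.416%). At an unadjusted p under 0.05 the members numbered 15 in ES cells, all lower in KO, where 10.8% of all genes were under it. There were 1 under IWP2 on day 4 (8.3% of all genes), 0 under IWP2 on day 8 (5.04%), 14 under CT0.4 on day 4 (18.7%), of which 13 were lower in KO, and 6 under CT0.4 on day 8, all lower (9.28%). Median log2 fold changes of the members were -0.13 in ES cells, 0.04 under IWP2 on both days, -0.12 under CT0.4 on day 4 and -0.04 under CT0.4 on day 8.

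The level at which all other genes lie matters for CT0.4 and CT1.0 on day 4, because the median log2 fold change of all genes tested was 0.13 and 0.19 there. With the columns rescaled by the median ratio over genes, 22 members were called lower in KO under CT0.4 on day 4, with a median of -0.32, as were 1031 of all 27912 genes. Both comparisons rest on the WT libraries that detected fewer genes, and the part of those libraries in the difference was not tested.

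Under CT1.0 on day 4, 1 member was higher in KO (12.4% of all genes were higher) and 3 were lower (2.49% of all genes were lower). RPL7, a large subunit protein, had 4689 and 4769 TPM in KO, against 3834 and 4013 TPM in WT, and its log2 fold change was 0.27 ± 0.07 (SE), with an adjusted p of 0.0122 from limma. RPSA, the small subunit protein also known as a laminin receptor, had 1726 and 1730 TPM in KO, against 2032 and 2044 TPM in WT, and fell by 0.24 ± 0.07 (adjusted p = 0.0281 from limma). RPLP1, a protein of the stalk that recruits elongation factors, had 3050 and 3357 TPM in KO, against 4106 and 4008 TPM in WT, and fell by 0.34 ± 0.09 (adjusted p = 0.0164 from limma). RPS26 had 218 and 258 TPM in KO, against 363 and 333 TPM in WT, and fell by 0.55 ± 0.14 (adjusted p = 0.0159 from limma). The KO libraries lay above the WT libraries for RPL7 and below them for the other 3. Of the 82 members, 47 lay wholly below in KO (13.1% of all genes) and 5 wholly above (41.1%).

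The call of RPL7 depended on the scale of the library: with median-ratio scaling it was not called, while 49 members, none of them RPL7, were called lower in KO and none higher, with a median of -0.36, and of all 27912 genes 2537 were lower and 1764 higher. Leaving out KO line 26 or WT line 1 left 0 members called, leaving out KO line 48 left 1 and leaving out WT line 2 left 2.

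Under CT1.0 on day 8, 61 of the 82 members were higher in KO, where 4.34% of all genes tested were higher, and 1 was lower, where 9.96% of all genes were lower. The median log2 fold change of the members was 0.38, a 1.305-fold difference, and that of all genes tested was -0.02. By subunit, 23 of 31 small subunit genes were higher and 1 lower, and 36 of 43 large subunit genes outside the stalk were higher. Of the 47 members with a run of pyrimidines at the start, 38 were higher, as were 12 of the 19 without one and 11 of the 16 with no entry in the promoter table. Median log2 fold changes of these 3 groups lay between 0.37 and 0.39. Both KO libraries lay above both WT libraries for 70 members (20.3% of all genes) and below them for 5 (30.2%).

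**Figure D2:**
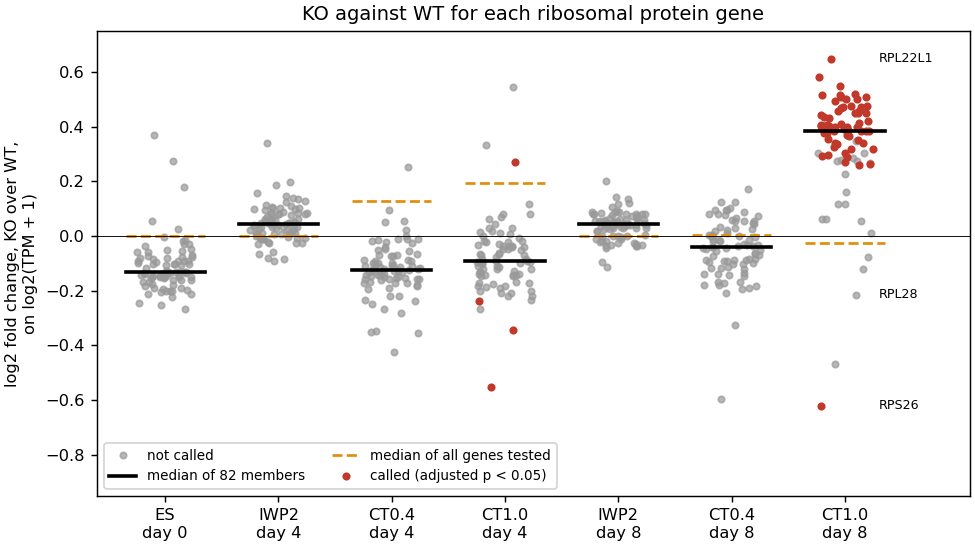
Log2 fold change of each of the 82 genes on log2(TPM + 1), KO over WT (vertical axis), in each label and day; points are genes, red where called at adjusted p under 0.05, black bars the median of the 82 genes and orange dashed lines the median of all genes tested. In CT1.0 on day 8, 61 genes were called higher and RPS26 lower, around a median of 0.38, while the other day 8 groups and ES cells have no called gene.

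The 3 largest differences among the members called higher were those of RPL22L1, RPL9 and RPL31. RPL31, a large subunit protein, had 8010 and 7747 TPM in KO, against 5217 and 5546 TPM in WT, and its log2 fold change was 0.55 ± 0.10 (SE, adjusted p = 0.00123 from limma). RPL9 had 3309 and 2630 TPM in KO, against 1874 and 2075 TPM in WT, with a log2 fold change of 0.58 ± 0.11 (adjusted p = 0.00237 from limma). RPL22L1, the low paralogue of RPL22, had 51.8 and 53.6 TPM in KO, against 27.9 and 39.6 TPM in WT, with a log2 fold change of 0.65 ± 0.19 (adjusted p = 0.0266 from limma). KO libraries lay above WT libraries for all 3, and the WT libraries of RPL22L1 lay farthest apart relative to their level.

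The most abundant members rose as well. RPS27 reached 12044 and 11407 TPM in KO, against 9071 and 8656 TPM in WT (log2 fold change 0.40, adjusted p = 0.0167 from limma). RPL4 had 9168 and 8044 TPM in KO, against 6086 TPM and 6094 TPM in WT (0.50, adjusted p = 0.00168 from limma). RPS24 had 8637 and 8454 TPM in KO, against 6371 and 6553 TPM in WT, and its adjusted p of 0.000776 from limma went with a log2 fold change of 0.40. RPL41 rose by 0.32 and RPS23 by 0.34 on the same scale. All of these genes had both KO libraries above both WT libraries.

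Of members picked as well known, RPSA, RPS6, RPL5, RPL11, RPS19 and RPS27A were called higher by limma, with adjusted p between 0.00214 and 0.0175. RPS6, the substrate of S6 kinase, had 3564 and 3500 TPM in KO, against 2580 and 3206 TPM in WT, with a log2 fold change of 0.30. RPL5 and RPL11, which bind 5S rRNA and MDM2, had log2 fold changes of 0.45 and 0.39. RPL5 had 3901 and 3474 TPM in KO, against 2498 and 2899 TPM in WT. RPS19, often mutated in Diamond-Blackfan anaemia, had 3582 and 3694 TPM in KO, against 2452 and 3073 TPM in WT, a log2 fold change of 0.41. RPS27A, made as a fusion with ubiquitin, had 3140 and 3071 TPM in KO, against 2315 and 2256 TPM in WT, a log2 fold change of 0.44, and RPSA had a log2 fold change of 0.30.

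The common partners of the paralogues were all called higher. RPL26 had 6042 and 5521 TPM in KO, against 4211 and 4208 TPM in WT, with a log2 fold change of 0.46. RPL7 had 5153 and 4877 TPM in KO, against 3925 and 3686 TPM in WT, with a log2 fold change of 0.40. RPL3, which lies at the peptidyl transferase centre, had 5534 and 5413 TPM in KO, against 3681 and 4194 TPM in WT, with a log2 fold change of 0.48. RPL36A had 7724 and 7030 TPM in KO, against 5270 and 5923 TPM in WT, and RPL10, which joins the large subunit late in its assembly, had 6122 and 5597 TPM in KO, against 4411 and 4740 TPM in WT. In each of these 5 genes both KO libraries lay above both WT libraries.

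The stalk was uneven. RPLP0, its base, had 6836 and 6410 TPM in KO, against 4997 and 5475 TPM in WT, and was called higher (log2 fold change 0.34, adjusted p = 0.0102 from limma). RPLP1 had 3864 and 3591 TPM in KO, against 2840 and 3370 TPM in WT, and missed the threshold (0.27, adjusted p = 0.0563 from limma). RPLP2 had 1344 and 1308 TPM in KO, against 1374 and 1423 TPM in WT (-0.08, adjusted p = 0.34 from limma). The KO libraries lay above the WT libraries for RPLP1 and below them for RPLP2, with neither gene called.

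RPS26 was the sole member called lower. It had 269 and 291 TPM in KO, against 404 and 460 TPM in WT, and fell by 0.62 ± 0.14 on the log2 scale (adjusted p = 0.00813 from limma). Among the 20 members not called were 4 of the 5 paralogues, and 3 members outside the paralogues and without a call had log2 fold changes below 0. RPL28 had 1351 and 1337 TPM in KO, against 1577 and 1545 TPM in WT (-0.22, adjusted p = 0.102 from limma), and RPS2 had 4238 and 4187 TPM in KO, against 4473 and 4693 TPM in WT (-0.12, adjusted p = 0.39 from limma). The third was RPLP2, and these genes were picked out after their values were seen.

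The size of the difference under CT1.0 on day 8 varied less than its calls did. The log2 ratio of the summed TPM lay between 0.31 and 0.44 when 1 line was left out, but the number of members called was 4 without KO line 26, 57 without KO line 48, 1 when WT line 1 was left out and 28 when WT line 2 was, and 0 in a fit of these 4 libraries alone. Dividing each library by the members' own geometric mean, which takes out what they share, left 7 higher and 8 lower. Median-ratio scaling gave 69 higher and 1 lower, against 1635 and 1887 of all 27912 genes, and without the 4 WT libraries of day 4 that detected fewer genes 60 members were called.

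Whether the difference between KO and WT varied with label or day was tested as an interaction in the same limma fit. Between CT1.0 and IWP2 on day 8 the difference was larger under CT1.0 for 7 members, where 0.91% of all genes were, and smaller for none. Between CT1.0 and CT0.4 on day 8 it was larger for 38 members (1.55% of all genes), and between days 8 and 4 under CT1.0 it was larger on day 8 for 51 members (0.885% of all genes), again with none smaller. The medians over the 82 members were 0.32, 0.40 and 0.47, beside -0.05, -0.08 and -0.29 over all genes tested. All 3 share the CT1.0 libraries of day 8. Centred on the members' geometric mean, 0, 4 and 2 members were larger and 3, 5 and 7 smaller.

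The 7 members that passed between CT1.0 and IWP2 had interactions of 0.37 to 0.57, and RPL31, RPL39, RPS3A, RPL24, RPL23 and RPS24 were among them. RPL39, a short protein of the exit tunnel, had 8310 and 8111 TPM in KO, against 5329 and 6192 TPM in WT, under CT1.0 on day 8. Under IWP2 on that day it had 5075 and 4052 TPM in KO, against 4535 and 4749 TPM in WT. The CT1.0 libraries were apart by genotype and the IWP2 libraries overlapped. RPS3A, a small subunit protein, had 5258 and 4425 TPM in KO, against 3081 and 3760 TPM in WT, under CT1.0 on day 8, and 2500 and 2481 TPM in KO, against 2435 and 2544 TPM in WT, under IWP2. RPL31 had 4445 and 3792 TPM in KO, against 4221 and 4110 TPM in WT, under IWP2 on day 8, and 4203 and 4097 TPM in KO, against 4089.5 and 4420 TPM in WT, under CT0.4. Both labels gave overlapping libraries for it. Between CT1.0 and IWP2 the count was 13 with median-ratio scaling, 3 without the filter on low values, 2 without the 4 WT libraries that detected fewer genes and 0 without the intensity trend or in a fit of the libraries compared. For this interaction 5 members were called without KO line 48 and 0 without any other line. For that between CT1.0 and CT0.4 leaving out KO line 26 gave 2, KO line 48 gave 6, WT line 1 gave 0 and WT line 2 gave 1. For that between days the same order of lines gave 0, 34, 0 and 7. Without the trend these 2 counts were 6 and 19, and in fits of the libraries compared both were 0.

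In WT, the members' levels were high on day 4 under the CT labels. Relative to ES cells, under CT0.4 on day 4, 67 members rose (12.2% of all genes) and 5 fell (17.7%), with a median log2 fold change of 0.48. Under CT1.0 on day 4, 72 members rose (10.2%) and 5 fell (20.8%), with a median of 0.60. Both comparisons rest on the 4 WT libraries that detected fewer genes, and the part of those libraries in the rise was not tested. In KO the mean share of TPM held by the members was 17.5% in ES cells. On day 4 it was 24.9% under CT0.4 and 27.8% under CT1.0 in KO. Under IWP2 on day 4, 11 members were higher than in ES cells (20.3%) and 9 lower (14.9%), near or below the share of all genes in both directions, and median-ratio scaling gave 0 higher and 17 lower, against 4183 and 5348 of all 27912 genes. Leaving out WT line 1 gave 11 calls under IWP2, and leaving out WT line 2 gave 4 under IWP2 and 43 under CT0.4.

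RPLP0 shows the rise: it had 7167 and 6940 TPM under CT1.0 on day 4, against 4092 and 3469 TPM in ES cells, with a log2 fold change of 0.90. RPS4X and RPL34 rose by 0.92 and 0.93 in the same comparison. The members that fell under both CT labels were RPL22L1, RPS27L, RPL39L, RPL7L1 and RPS26, which are 4 of the 5 paralogues and the small subunit gene that left the common course. RPL22L1 had 39.5 and 39.6 TPM under CT1.0 on day 4, against 79.2 and 117 TPM in ES cells, and RPL39L, known for its expression in testis, had 53.3 and 53.0 TPM, against 105 and 90.5 TPM.

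Between days 8 and 4 in WT, members were lower on day 8 under each label. The count was 31 under IWP2 (4.85% of all genes were lower), 77 under CT0.4 (5.08%) and 49 under CT1.0 (2.45%), with median log2 fold changes of -0.25, -0.61 and -0.32. RPL12, which had the largest fall under CT0.4, changed by -1.0 there and by -0.56 under CT1.0. RPL13A had the largest fall under IWP2, -0.52, and under CT1.0, -0.75. The comparisons of CT0.4 and CT1.0 use the WT day 4 libraries that detected fewer genes. In them the median of all genes was 0.18 and 0.17, and median-ratio scaling gave 79 and 74 members lower, against 3098 and 1669 of all 27912 genes. Without WT line 1, calls in either direction numbered 0 under IWP2, 45 under CT0.4 and 1 under CT1.0, which was a higher one. Without WT line 2 they numbered 0 under IWP2 and 14 under CT1.0.

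In KO under CT1.0 the course differed from that in WT by the interaction between days in the main fit. That interaction rests in part on the WT day 4 libraries that detected fewer genes. Its calls were lost in a fit of the libraries compared. Within KO under CT1.0, 12 members were higher on day 8 than on day 4 (4.16% of all genes) and 2 were lower (6.87%), with a median of 0.12. RPL14 fell by 0.23 and RPS2 by 0.31 on the log2 scale, and with median-ratio scaling 16 members were higher and 0 lower, against 1612 and 1382 of all 27912 genes. Calls numbered 0 without KO line 26, 4 without KO line 48 and 6 with either WT line left out.

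**Figure D3:**
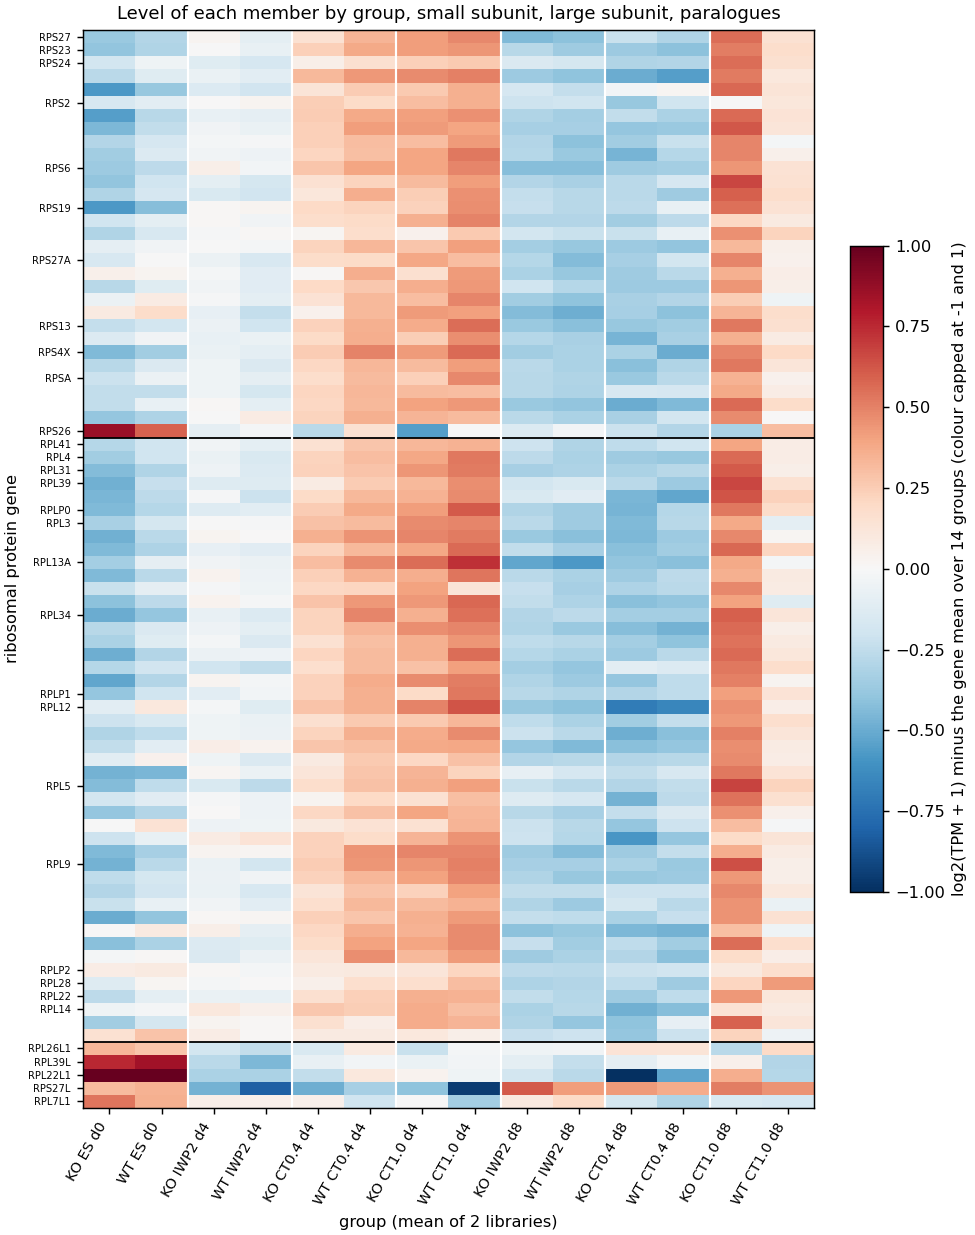
Level of each of the 82 genes (rows, small subunit above, large subunit below it, paralogues at the bottom) in each of the 14 groups (columns, KO left of WT), as log2(TPM + 1) minus the gene's mean over the groups, with colours capped at -1 and 1 and names given for some rows. Red columns at CT0.4 and CT1.0 on day 4 and at KO CT1.0 on day 8 run through nearly all rows, while RPS26 and the paralogues have their own pattern.

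The labels also differed within WT. Under CT1.0, 71 members were higher than under IWP2 on day 4 (2.82% of all genes) and 69 on day 8 (2.97%), with median log2 fold changes of 0.52 and 0.41. On day 4 RPL7L1 was lower, by 0.39, and was not called with median-ratio scaling. The median of all genes was -0.22 on day 4, where the CT1.0 libraries are among those that detected fewer genes. RPS13 had log2 fold changes of 0.76 on day 4 and 0.58 on day 8. Between CT0.4 and IWP2 on day 8, 3 members were called (12.2% of all genes in either direction), among which RPL36A fell by 0.41 and RPL7L1 by 0.50. Median-ratio scaling gave 2 calls, both lower, against 1463 of all 27912 genes lower, and leaving out either WT line left 0. For CT1.0 against IWP2 the counts were 24 on day 4 and 12 on day 8 without WT line 1, and 43 and 8 without WT line 2.

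The members were also compared with one another. Each gene's level was set against the geometric mean of the 82 members in the same library, and the range of this relative level over the 14 group means was taken. For the 77 members that are not paralogues its median was 0.385 on the log2 scale, 66 were under 0.5, and RPS26, at 1.93, was the sole one above 1. The 5 paralogues ranged over 1.24 to 2.66. The summed TPM of the small subunit was 0.628 to 0.668 of that of the large subunit in the 28 libraries. As a description over the 28 libraries, which share lines, days and a fixed TPM total, the log2 level of the 77 correlated with the mean of the other members with a median r of 0.951, and 62 had an r of at least 0.9. RPL36A and its paralogue RPL36AL, which the naming pattern does not take, differ likewise: RPL36AL was 1.46% to 6.46% of RPL36A.

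RPL22L1 was at its highest in ES cells, with 137 and 114 TPM in KO and 79.2 and 117 TPM in WT, which is 13.1% and 9.21% of the level of RPL22 as group means. On day 8 it was 18.3 and 18.1 TPM under CT0.4 in KO, against 26.6 and 29.4 TPM in WT, so KO lay below WT under CT0.4 and above it under CT1.0. The difference under CT0.4 alone was not called (-0.60, adjusted p = 0.245 from limma), and 15.3% of all genes lay wholly below in KO there. The interaction between these labels was 1.25 ± 0.26 (SE, adjusted p = 0.016 from limma), the largest among the members. Under IWP2 on day 8 the genotypes of RPL22L1 overlapped, with 35.9 TPM in each KO library, against 39.8 and 28.6 TPM in WT. RPL22 itself had 1610 and 1496 TPM in KO, against 1217 and 1257 TPM in WT, under CT1.0 on day 8.

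RPS27L, known as a target of p53, took a course of its own in time. In WT ES cells it had 57.8 and 50.8 TPM. In WT under CT1.0 the day 4 libraries had 24.2 and 18.95 TPM, and the day 8 libraries had 56.5 and 59.9 TPM. It was the sole member called higher on day 8 than on day 4 in WT under each label. The log2 fold changes were 1.23 under IWP2, 0.70 under CT0.4 and 1.40 under CT1.0 (adjusted p of 0.000652, 0.0179 and 0.000197 from limma). With median-ratio scaling it was not called under CT0.4. In KO under CT1.0 it rose by 0.91, with 74.6 and 49.4 TPM on day 8, against 31.1 and 32.4 TPM on day 4. Its partner RPS27 was 11382 and 10857 TPM in WT on day 4 under CT1.0, and RPS27L was between 0.175% and 1.34% of it over the libraries.

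RPS26 was lower on day 4 than in ES cells in WT under each label, as were RPL22L1, RPL39L, RPS27L and RPL7L1. In ES cells it had 651 and 617 TPM in KO, against 454 and 605 TPM in WT, and its group mean was highest in KO ES cells. Under both CT1.0 days it was lower in KO than in WT, with KO libraries between 218 and 291 TPM and WT libraries between 333 and 460 TPM. Under CT0.4 on day 4 RPS26 had 292 ± 60.1 TPM in KO and 389 ± 38.8 TPM in WT (SD, n = 2 each). It was not called there (-0.43, adjusted p = 0.107 from limma). RPL26L1, a near-identical copy of RPL26 at the protein level, had 53.8 and 56.8 TPM in KO, against 87.4 and 67.6 TPM in WT, under CT1.0 on day 8 (-0.47, adjusted p = 0.0618 from limma). RPL7L1 had 32.5 and 37.9 TPM in KO, against 36.7 and 33 TPM in WT, in that comparison, and the groups overlapped. Its highest group was KO ES cells, with 62.2 and 53.0 TPM, against 50.3 and 50.8 TPM in WT ES cells. RPL39L had 61.3 and 51.7 TPM in KO, against 38.6 and 49.9 TPM in WT, under CT1.0 on day 8 (0.35, adjusted p = 0.172 from limma), and on that day it overlapped between genotypes under CT0.4. RPL3L reached at most 0.901 TPM in any library.

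**Figure D4:**
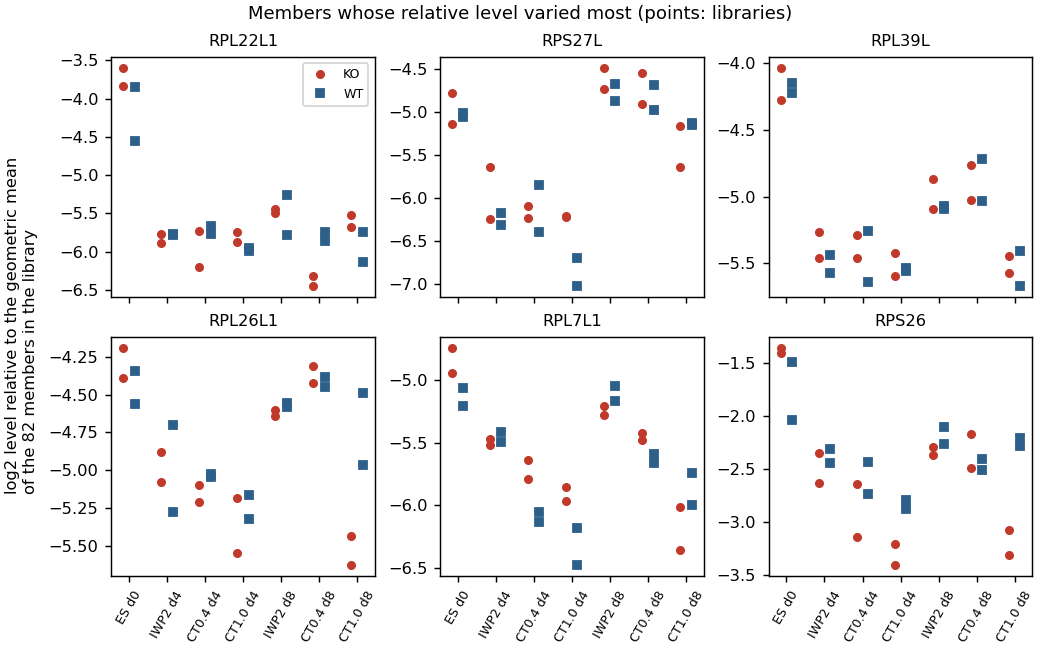
Log2 level of 6 genes relative to the geometric mean of the 82 members in the same library (vertical axis, own scale in each panel), for KO (red circles) and WT (blue squares) by label and day; points are libraries. RPL22L1 and RPL39L are highest in ES cells, RPS26 in KO ES cells, RPS27L is lowest on day 4, and RPS26 and RPL26L1 lie lower in KO than in WT under CT1.0 on day 8.

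Other genes of the translation and growth machinery were read from lists beside the members under CT1.0 on day 8, where 4.34% of all genes were higher and 9.96% lower. Of 4 ribosome genes that the naming pattern leaves out, FAU, which encodes a ubiquitin-like protein fused to a small subunit protein, rose by 0.27 and RACK1, a scaffold on the small subunit, by 0.37 on the log2 scale. RPL36AL, which the pattern does not take either, went the other way, with 117.9 and 109.4 TPM in KO, against 140.6 and 128.7 TPM in WT. Of 20 genes of translation with TOP mRNAs, 7 rose and 2 fell, with a median of 0.08. EEF1A1, the factor that brings tRNAs to the ribosome, had 15660 ± 2070 TPM in KO and 12190 ± 337 TPM in WT (SD, n = 2 each) and rose by 0.35. HNRNPA1, an RNA-binding protein, had 4964 ± 27.3 TPM in KO and 4943 ± 50.9 TPM in WT (SD, n = 2 each), with a log2 fold change of 0.01. Of 10 RNAs that host small nucleolar RNAs, 3 rose and none fell. GAS5, a TOP transcript among them, had 1342 ± 147 TPM in KO and 745 ± 48.1 TPM in WT (SD, n = 2 each) and rose by 0.84 (adjusted p = 7.29e-05 from limma).

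Genes that build ribosomes were mostly lower where called. Of 33 ribosome biogenesis genes 21 fell and 1 rose, with a median of -0.63, where 9.96% of all genes were lower and 4.34% higher. NOP56, a core protein of snoRNPs, fell by 0.63, and NCL, nucleolin, fell by 0.49, while FBL, the rRNA methylase fibrillarin, had a log2 fold change of 0.05 (adjusted p = 0.718 from limma). With median-ratio scaling 18 of the 33 fell and 1 rose. Among 16 regulators around MYC and mTOR none rose and 4 fell, or 2 with median-ratio scaling, and LARP1, the TOP-binding protein, fell by 0.44.

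In 4 other housekeeping lists most calls were lower. Of 76 mitochondrial ribosomal protein genes 27 fell and 1 rose, of 37 proteasome genes 21 fell and 2 rose, and of 13 protein genes of the mitochondrial genome 8 fell. Of 75 nuclear respiratory chain genes 15 fell and 3 rose, and with median-ratio scaling 4 fell and 7 rose. The same scaling gave 11 lower and 1 higher for mitochondrial ribosomal proteins and 10 lower and 2 higher for the proteasome. PSMA4 and PSMA7, subunits of the proteasome core, fell by 0.49 and 0.40, and MT-CO1, a subunit of cytochrome c oxidase from the mitochondrial genome, had a log2 fold change of 0.02 (adjusted p = 0.985 from limma).

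**Figure D5:**
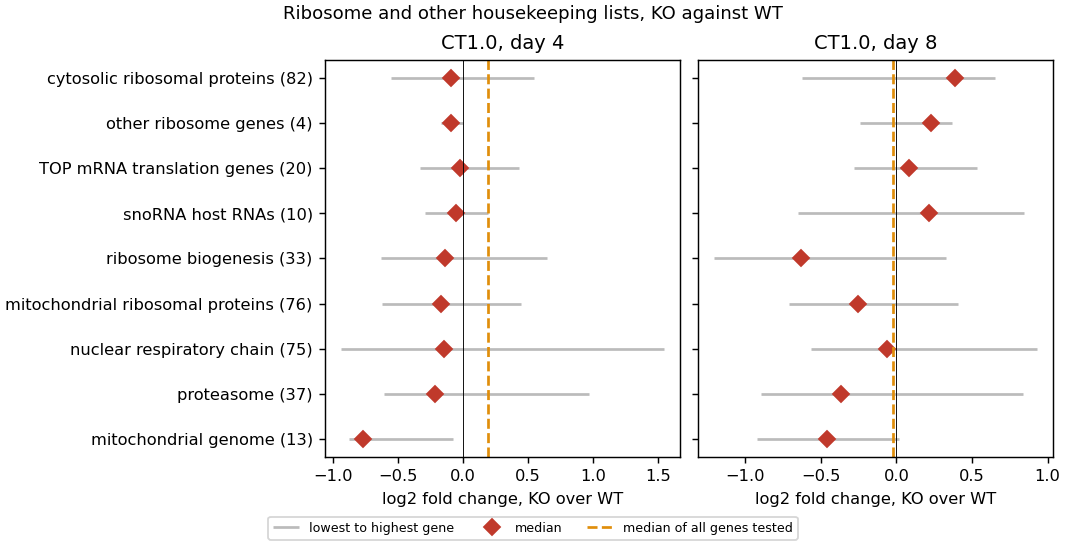
Log2 fold change, KO over WT (horizontal axes), under CT1.0 on day 4 (left) and day 8 (right) for lists of genes, with the number tested in brackets; diamonds are medians, grey lines run from the lowest to the highest gene, and the orange dashed line is the median of all genes tested. On day 8 the cytosolic ribosomal proteins have the highest median, 0.38, and ribosome biogenesis the lowest, -0.63.

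Levels of cell type markers also differed between KO and WT under CT1.0 on day 8. Against the same shares of all genes, of 7 neuron markers 4 fell in KO and none rose, and their summed TPM was 149 and 340 in KO, against 782 and 641 in WT. TUBB3, a neuronal tubulin, had 168 ± 100 TPM in KO and 560 ± 65.2 TPM in WT (SD, n = 2 each). NES, the progenitor filament nestin, had 312 ± 139 TPM in KO and 959 ± 93.5 TPM in WT (SD, n = 2 each). Of 9 neural progenitor markers 5 fell and 2 rose, with sums of 925 and 1165 TPM in KO, against 1820 and 1712 TPM in WT. Of 9 pluripotency markers 1 fell, or 1 rose and 0 fell with median-ratio scaling, with sums of 558 and 551 TPM in KO, against 571 and 521 TPM in WT. Of 6 surface ectoderm markers 2 rose, with sums of 89.3 and 69.5 TPM in KO, against 43.5 and 52.8 TPM in WT. Of 6 neural crest markers 2 rose as well, but their sums were lower in KO, at 107 and 109 TPM, against 130 and 133 TPM in WT. None of 5 mesendoderm markers passed the filter. KRT18, an epithelial keratin, had 20.5 ± 4.01 TPM in KO and 9.16 ± 2.8 TPM in WT (SD, n = 2 each). The part of cell types in the members' levels was not tested. Transcript length, which is shorter in the members (median 685 bases) than over all protein-coding genes tested (1833 bases), had a rank correlation with the log2 fold change of -0.06 over 77 members and -0.03 over 15366 genes, given as a description.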

How the data were processed

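RNA of 28 libraries was sequenced from poly(A) RNA, on HiSeq2000 or X-ten instruments per the labels' protocols, which do not say which library ran on which. The authors deposited 1 table of TPM per gene for all libraries. CASAVA 1.7, Salmon 0.8.2 and hg38 are named, without their roles, per the submitters' processing notes, which name no annotation release. Because TPM sums to the same total in every library, a gain in one set of genes lowers the others, and depth is lost. All 28 columns were matched to the labels and 0 were left unmatched.

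From the deposited TPM, log2(TPM + 1) was modelled in R 4.3.3 by limma 3.58.1, taking 1 mean for each of 14 groups over all 28 libraries (14 residual degrees of freedom), an intensity trend, and genes kept at a TPM of at least 1 in at least 2 libraries. P-values were adjusted by Benjamini-Hochberg over 27912 genes in each of 20 comparisons and called under 0.05. The steps were tested on simulated data in which genes varied independently and the changed genes moved more than most members did here. A smaller change shared by many genes was not simulated. Members and gene lists were chosen with earlier results of these data known. Named members were the 3 called ones with the largest change in either direction between KO and WT, the 5 highest and 5 lowest by mean TPM, the 6 whose relative level varied most, paralogue pairs, the stalk, RPSA, RPS6, RPL5, RPL11, RPS19 and RPS27A, with up to 3 genes of each other list by mean TPM. Those named in comparisons of days, labels and interactions, and RPL28 and RPS2, were chosen after their values were seen. The fit was repeated with median-ratio scaling, centred on the members, with a pseudocount of 0.1, unfiltered, on the compared libraries alone, with a block for line, with robust variances and no trend, and with each line left out. Instrument could not be fitted. Promoter sequences came from RefSeq (GRCh38.p14). Some single genes within these sets are not reported here.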

Additional observations from a re-analysis of the deposited data

Results flagged for a closer look

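Differences between groups in the effect of SOX1-/- were found by the interaction tests of limma, whose adjusted p covers 27912 genes. Under CT1.0 against IWP2 on day 8, 7 members (0.91% of all genes) had a larger log2 difference of KO over WT under CT1.0, led by RPL31 (0.57), RPL39 (0.55) and RPS3A (0.50). Under CT1.0 against CT0.4 on day 8 there were 38 (1.55% of all genes), led by RPL22L1 (1.25), RPL36 (0.80) and RPL3 (0.64). Under CT1.0 on day 8 against day 4 there were 51 (0.885% of all genes), led by RPL34 (0.66), RPL15 (0.66) and RPL13 (0.66). Leaving out WT line 1 took each of the 3 counts to 0, and leaving out KO line 26 gave 0, 2 and 0. The 3 sets share the CT1.0 libraries of day 8, and the comparison of days also rests on the WT libraries of day 4 that detected fewer genes.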

How the results depend on the processing

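With 2 lines per genotype, calls rest on the pooled spread of 14 groups, and leaving out a line leaves a lone library per group that is assumed to vary like the others. TPM holds no depth, so counting error is unknown. A pseudocount of 0.1 changed no call count beyond 1.5 times. With median-ratio scaling the called members numbered 22 (CT0.4 day 4) and 49 (CT1.0 day 4) for KO against WT, 13 for CT1.0 minus IWP2, 17, all lower, for WT IWP2 day 4 against ES, and 50 for WT IWP2 day 8 against day 4. The log2 ratio of the summed TPM became -0.32 for CT0.4 day 4, -0.36 for CT1.0 day 4 and 0.49 for CT1.0 day 8, and without mitochondrial genome genes -0.13 for CT1.0 day 4. Centred on the members, which removes their common change by construction, KO against WT gave 1 (CT0.4 day 4), 2 (CT1.0 day 4, both higher) and 15 (CT1.0 day 8, with 7 higher and 8 lower) calls. The 3 interactions gave 3 (CT1.0 minus IWP2), 9 (CT1.0 minus CT0.4) and 9 (day 8 minus day 4), with more smaller than larger. KO CT1.0 day 8 against day 4 gave 11, WT CT0.4 against IWP2 day 8 gave 8, WT day 4 against ES gave 34 (IWP2), 39 (CT0.4) and 43 (CT1.0), WT day 8 against day 4 gave 10 (IWP2), 33 (CT0.4) and 19 (CT1.0), and WT CT1.0 against IWP2 gave 17 (day 4) and 9 (day 8). Results of named genes that it turned include RPL41 (-0.07), RPL11 (-0.01375) and RPS6 (-0.01445) between days and RPS6 (-0.0306) and RPSA (-0.0242) under CT1.0 on day 8.

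Without the low-value filter, CT1.0 minus IWP2 gave 3. Without the trend the counts were 4 (KO CT1.0 day 8 against day 4), 1 (CT1.0 day 4), 6, 0 and 19 (CT1.0 minus CT0.4, CT1.0 minus IWP2 and day 8 minus day 4), 33 and 9 (WT day 8 against day 4, CT1.0 and IWP2) and 10 (WT IWP2 day 4 against ES). Fitting only the libraries compared, which leaves few degrees of freedom, gave 0 for KO CT1.0 day 8 against day 4, KO against WT under CT1.0 on both days, the 3 interactions, WT CT0.4 and CT1.0 against IWP2 on day 8 and WT day 8 against day 4 under CT1.0 and IWP2. It gave 2, 4 and 4 (all lower) for WT day 4 against ES under CT0.4, CT1.0 and IWP2, 7 for WT CT0.4 day 8 against day 4 and 5 in WT on day 4 for CT1.0 against IWP2. Except where stated, the cause of these changes was not tested.

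Line numbers are shared by days and labels within a genotype. Deviations of the same line correlated at -0.09 to 0.08 in WT (0 of 21 pairs of groups over 0.1) and -0.06 to 0.20 in KO (8 of 21), so the lines were not taken to pair the libraries. With the replicate block the counts were 1 for CT0.4 day 4 and 20 for CT1.0 minus IWP2, and the others stayed within 1.5 times. In an alternative chosen after seeing the data, without the 4 WT libraries of CT0.4 and CT1.0 on day 4, CT1.0 minus IWP2 gave 2. Comparisons that use those libraries have no such value.

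Leaving out each line gave 0 for KO against WT in ES cells, IWP2 on both days and CT0.4 on day 8, 0 to 1 for CT0.4 day 4, 0 to 2 for CT1.0 day 4 and 1 to 57 for CT1.0 day 8. It gave 0 to 6 for CT1.0 minus CT0.4, 0 to 5 for CT1.0 minus IWP2, 0 to 34 for day 8 minus day 4 and 0 to 6 for KO CT1.0 day 8 against day 4. In WT it gave 4 to 17, 43 to 70 and 56 to 76 for day 4 against ES (IWP2, CT0.4, CT1.0), 0 to 30, 45 to 74 and 1 to 49 for day 8 against day 4 in that order of labels, 24 to 71 and 8 to 69 for CT1.0 against IWP2 (days 4 and 8) and 0 to 3 for CT0.4 against IWP2. The log2 ratio of the summed TPM, KO over WT, ran from -0.17 to -0.07 (CT0.4 day 4), -0.11 to 0.04 (CT0.4 day 8), -0.11 to -0.07 (CT1.0 day 4), 0.31 to 0.44 (CT1.0 day 8), -0.21 to -0.06 (ES), -0.0046 to 0.10 (IWP2 day 4) and 0.0037 to 0.08 (IWP2 day 8).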
